A study of Drosophila melanogaster with 6 samples.

Results

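Mediator is the large complex that links transcription factors bound at enhancers to RNA polymerase II at promoters. Its head and middle contact the polymerase, its tail receives most activators, MED14 runs through the complex as a scaffold, and a dissociable kinase module made of Cdk8, Cyclin C, Med12 and Med13 controls how the core meets the polymerase. In Drosophila, Med12 and Med13 are encoded by kto (kohtalo) and skd (skuld), known for their roles in eye and wing development. The genes were taken by their FlyBase symbol: every symbol that starts with MED and a number, together with kto, skd, Cdk8 and CycC. This gave 29 of the 16451 genes in the files. The subunit gene ix, the fly MED29, has a symbol outside that rule and is given separately.

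The cells were S2 cells, a hemocyte-like line from Drosophila melanogaster embryos, of wild type genotype. All were kept at 25 °C in Schneider's medium with 10% serum and antibiotics. The 3 control libraries came from cells that were given an equal volume of medium, and the 3 H2O2 libraries from cells exposed to 10 mM hydrogen peroxide for 30 min. No label states that replicates were separate cultures. The p-values therefore speak only to library-to-library spread, and that spread may be technical.

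Library totals were between 35404927 and 42043808 expected counts (reads, with those shared between genes divided by probability). Of 15 hemocyte markers, 13 were above 1 TPM (deposited transcript abundance, scaled per length and library) in every library, with Hml, He and Pxn among the highest; lz and gcm were at or near 0. The summed hemocyte marker level was 2335 to 2614 TPM in controls and 1937 to 2142 TPM after H2O2, and its part in the results below was not tested. Muscle markers summed to at most 2.39 TPM and fat body markers to at most 0.56 TPM in any library. Neuron markers summed to at most 10.8 TPM. Germline and ovary markers summed to 98.8 to 136 TPM, most of it from bam.

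All 29 Mediator genes had 346 to 9107 counts in every library, those of MED9 being uncertain (below), and all 29 were tested. In TPM, which allows for transcript length, their control means spanned 12.9-fold, with a median of 27.9 TPM. The highest was MED15, a tail subunit that binds activators, at 103 ± 11.2 TPM (SD, n = 3) in controls and 91.4 ± 11.2 TPM after H2O2. It was followed by MED30, at the junction of head and tail, with 94.6 ± 9.73 TPM, a gap within the SD. Cdk8, the kinase, was lowest, at 8.34, 7.46 and 8.06 TPM in control replicates 1 to 3, below every control value of the next gene, the tail subunit MED24 (10.3, 10.4 and 9.88 TPM). Against all genes with a mean of at least 10 counts, Cdk8 lay above 29.7% and MED15 above 86.7% in control TPM.

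**Figure D1:**
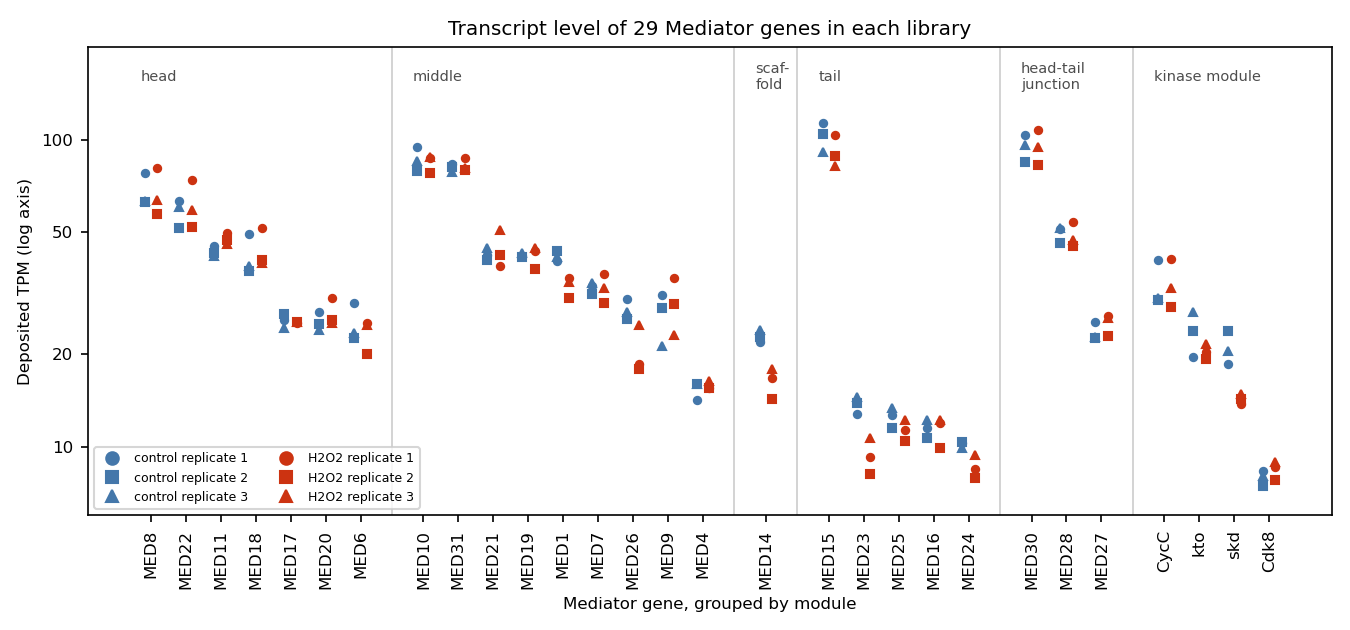
Deposited TPM (log axis) of each Mediator gene in each of the 6 libraries, grouped by module and ordered by control mean. Circles, squares and triangles are replicates 1, 2 and 3; control is blue and H2O2 red. MED15 and Cdk8 stand at the ends of the range, and in skd, MED14 and MED23 the H2O2 points lie below the control points.

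The kinase module was uneven in its transcript levels. CycC, the cyclin partner of Cdk8, had 33.8 ± 5.94 TPM in controls, with replicate 1 (40.6 TPM) above replicates 2 and 3 (30.2 and 30.5 TPM). kto had 23.7 ± 4.01 TPM and skd 21.03 ± 2.65 TPM. The tail held both the most abundant gene, MED15, and a low group: MED23, MED25, MED16 and MED24 had control means between 10.2 and 13.8 TPM. In the head, MED8 was highest (67.8 ± 8.73 TPM) and MED6 lowest (25.1 ± 3.69 TPM). In the middle, MED10 was highest (86.3 ± 7.87 TPM) and MED4 lowest (15.4 ± 1.03 TPM). In the junction group MED27 was lowest, at 23.6 ± 1.64 TPM. The 29 genes together held 1178.7, 1068.4 and 1089.1 TPM in control replicates 1, 2 and 3, and 1167.7, 987.6 and 1069.6 TPM after H2O2. Each sum was below the control of its number, but the groups overlapped. Their share of all counts, which does not allow for transcript length, did not overlap. It was 0.168, 0.1651 and 0.1645% in controls and 0.1619, 0.1494 and 0.1576% after H2O2.

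After H2O2, 0 of 29 Mediator genes passed edgeR's quasi-likelihood test at a Benjamini-Hochberg adjusted p under 0.05, where 3.14% of all 8955 tested genes did (2.57% higher and 0.57% lower). At an unadjusted p under 0.05 there were 5 of the 29, where 14% of all tested genes were. DESeq2 called 3, skd, MED14 and MED23, all lower, where it called 7.88% of all tested genes (4.02% higher and 3.86% lower). With the replicate number as a block, edgeR called 7: kto, skd, MED14, MED23, MED26 and MED1 were lower and MED11 was higher. In that fit 21.7% of all tested genes were called, 12.8% lower and 8.99% higher, against 6 lower and 1 higher of 29. The members' median log2 fold change was 0.09, beside 0.02 for all tested genes, and 10 of 29 were negative, where 45.2% of all tested genes were. In these bulk libraries, fewer cells with a transcript and less of it per cell cannot be told apart, and every value is a share of its library. Of the 29 genes, 13 overlap a gene on the opposite strand, MED1, MED11, MED14, MED24, MED27 and skd among them. Whether the counting used strand is unknown, so reads of those neighbours may be included. The authors' posterior SD of the count was 0 for each of these 13, and the part of such reads was not tested.

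The 6 members lower with the block were the 6 longest of the 29. skd has a mean weighted transcript length of 11241 nt, MED14 5507 nt, kto 5372 nt, MED26 4988 nt, MED1 4688 nt and MED23 4682 nt. The next in length, MED24 with 3199 nt, was lower in every H2O2 library than in every control but was not called (log2 fold change −0.15, adjusted p = 0.155 with the block). On scaled counts, groups did not overlap in 7 members lower and 5 higher, where 10.4% and 9.98% of all tested genes did. The 7 lower were the 7 members over 3000 nt, a bound set after the values were seen. The 5 higher, Cdk8, MED27, MED4, MED31 and MED11, were between 713 and 1529 nt. In TPM the groups of Cdk8, MED27, MED4 and MED31 overlapped, and those of MED11 did not. Among the 7 lower, only kto overlapped in TPM. The share of all tested genes whose groups did not overlap in TPM is not given here.

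The scaffold gene MED14 (FBgn0035145, dm6 chromosome 3L, 593246 to 599239, plus strand) had 104, 112 and 117 CPM (counts scaled to library size by TMM) in control replicates 1, 2 and 3. After H2O2 it had 84.8, 77.5 and 89.2 CPM. Every H2O2 library lay below every control, and each was below the control of its own number. The log2 fold change was −0.40 (SE 0.11, n = 3 per group, adjusted p = 0.116 by edgeR without the block and 0.00235 with it).

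In the tail, MED23, which in mammals receives signals from Ras-ERK through the factor Elk1, had the largest log2 fold change of the 29. MED23 (FBgn0034795, chromosome 2R, 22888928 to 22894425, plus strand) had 51.0, 57.8 and 59.8 CPM in controls and 39.8, 37.2 and 44.7 CPM after H2O2. The groups did not overlap, and the fold was 0.722 of control (log2 fold change −0.47, SE 0.12, adjusted p = 0.0958 by edgeR without the block and 0.00136 with it). The other tail genes had smaller differences: MED15 had 241, 231 and 199 CPM in controls and 237, 215 and 183 CPM after H2O2, lower in each pair but overlapping between groups (log2 fold change −0.08). MED25 had −0.05 and MED16 0.07 on the same log2 scale.

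In the kinase module, the log2 fold changes of skd and kto were negative and those of Cdk8 and CycC positive, but in the blocked fit without the length trend skd had 0.13, kto −0.08, Cdk8 0.12 and CycC 0.00, none called. skd (FBgn0003415, chromosome 3L, 20992814 to 21027434, minus strand) had 182, 241 and 207 CPM in controls and 147, 162 and 155 CPM after H2O2. All 3 H2O2 libraries were below the lowest control (log2 fold change −0.44, SE 0.13, adjusted p = 0.145 without the block and 0.00177 with it by edgeR). kto (FBgn0001324, chromosome 3L, 19836614 to 19844944, plus strand) had 102, 126 and 137 CPM in controls and 93.1, 88.5 and 96.3 CPM after H2O2. Its control replicate 1 was the lowest control and lay close to the H2O2 libraries. The log2 fold change was −0.39 (SE 0.13, adjusted p = 0.218 without the block and 0.00861 with it by edgeR). The blocked call of kto was lost without replicate 2 (adjusted p = 0.0961 by edgeR) or replicate 3 (0.0526). In TPM, which uses the length estimated in each library, its groups overlapped, at 19.6, 23.8 and 27.6 TPM in controls and 20.4, 19.3 and 21.6 TPM after H2O2.

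Cdk8 (FBgn0015618, chromosome 3L, 9837080 to 9838670, minus strand) had 9.83, 9.14 and 9.76 CPM in controls and 10.9, 10.6 and 11.1 CPM after H2O2. The H2O2 libraries were all above the controls by a small margin, and the difference did not pass the test (log2 fold change 0.18, SE 0.12, adjusted p = 0.665 by edgeR without the block and 0.201 with it). CycC had a log2 fold change of 0.11 (SE 0.16), with overlapping groups. In both groups CycC was highest in replicate 1, at 33.9 CPM in the control and 36.5 CPM after H2O2.

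**Figure D2:**
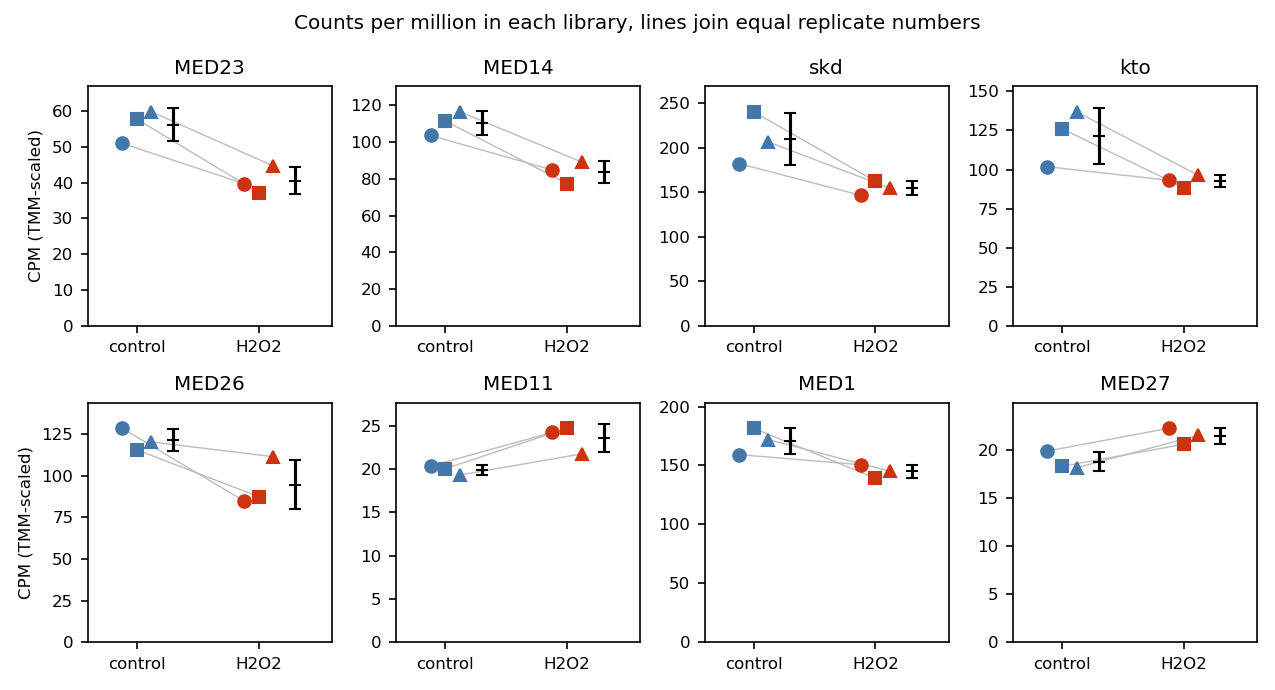
CPM, scaled by TMM, of 8 Mediator genes in each library; circles, squares and triangles are replicates 1, 2 and 3, grey lines join equal replicate numbers, and black bars give the mean and SD (n = 3). MED23, MED14, skd, kto, MED26 and MED1 are lower in every H2O2 library than in every control, and MED11 and MED27 are higher.

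In the middle, 7 of 9 genes had positive and 2 negative log2 fold changes. The negative ones were MED26 and MED1. MED26, which in human cells recruits elongation factors, had 129, 116 and 120 CPM in controls and 84.8, 87.5 and 111 CPM after H2O2 (FBgn0039923, chromosome 4, 778516 to 788978, minus strand). H2O2 replicate 3 was just below the lowest control, and the log2 ratio to the control of the same number was −0.60, −0.40 and −0.11 for replicates 1, 2 and 3. The log2 fold change of MED26 was −0.36 (SE 0.14, adjusted p = 0.275 without the block and 0.0148 with it by edgeR). Its blocked call was lost without replicate 1 (adjusted p = 0.0932 by edgeR) or replicate 2 (0.12).

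MED1, which in mammals binds nuclear receptors, had 159, 182 and 172 CPM in controls and 151, 139 and 145 CPM after H2O2 (FBgn0037109, chromosome 3L, 21628325 to 21634446, minus strand). The groups were apart by less than their own ranges (log2 fold change −0.24, SE 0.10, adjusted p = 0.376 without the block and 0.0465 with it by edgeR). The blocked call of MED1 was lost without replicate 2 (adjusted p = 0.238 by edgeR) or replicate 3 (0.12). The other 7 middle genes, MED4, MED7, MED9, MED10, MED19, MED21 and MED31, had log2 fold changes from 0.07 to 0.23, none called with or without the block. MED19, which binds Hox proteins in Drosophila, had 0.09.

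MED9 had the highest value of these, 0.23, and the least certain one. It shares its locus and strand with CG42518, and the authors' posterior SD of its count reached 57.3% of the count, while that of the other 28 members was 0. The 2 genes together had 61.7, 47.8 and 37.9 CPM in controls and 67.3, 56.3 and 43.4 CPM after H2O2, higher in each pair but with overlapping groups. For MED9 alone, the deposited lower bound of TPM was 7.01, 0.054 and 1.32 in control replicates 1, 2 and 3. After H2O2 it was 0.0, 0.004 and 0.362, so the counts do not settle how much MED9 was expressed.

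In the head, 6 of 7 genes had positive log2 fold changes, and MED6 had −0.01. MED11 (FBgn0036811, chromosome 3L, 18745856 to 18746623, plus strand), which pairs with MED22 in the head, had 20.3, 20.02 and 19.3 CPM in controls and 24.2, 24.7 and 21.7 CPM after H2O2. It was higher in every H2O2 library (log2 fold change 0.24, SE 0.11, adjusted p = 0.37 without the block and 0.036 with it by edgeR). The blocked call was lost whichever replicate number was left out (adjusted p = 0.133, 0.201 and 0.0687 by edgeR without replicates 1, 2 and 3), and without the length trend the value was 0.10 (adjusted p = 0.492). Its partner MED22 had 0.19, with overlapping groups, and the linked subunits MED18, MED20 and MED8 had 0.18, 0.19 and 0.09, none called. MED17, a central head subunit, had 0.08.

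In the junction group, MED27 had 19.9, 18.3 and 18.2 CPM in controls and 22.3, 20.6 and 21.5 CPM after H2O2. The groups did not overlap, and the difference did not pass (log2 fold change 0.19, SE 0.10, adjusted p = 0.515 without the block and 0.0857 with it by edgeR). MED30 had 0.10 and MED28 0.08. ix, which pairs with these subunits, had 14.1, 16.9 and 16.5 CPM in controls and 16.6, 20.98 and 20.8 CPM after H2O2. Its groups overlapped slightly, and its log2 fold change was 0.30 (SE 0.14, adjusted p = 0.426 without the block and 0.0199 with it by edgeR). The call was lost in the blocked fits without replicate 2 (adjusted p = 0.12 by edgeR) or replicate 3 (0.116), and in the one without the length trend, where the value was 0.15 (0.317).

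The log2 fold change of a member went with its transcript length. Across the 29 members, Pearson's r between log2 fold change and log2 length was −0.90 and Spearman's rho −0.77, as a description over genes that share the same 6 libraries. Over the 6884 genes of at least 5 mean CPM, r was −0.60 and rho −0.73. Members up to 1000 nt had a median log2 fold change of 0.14 (11 genes, all positive), beside 0.16 for all genes of that length. The 5 members of 4000 to 8000 nt had −0.39, all negative, beside −0.29 for all genes of that length. skd had −0.44, beside −0.57 for all genes over 8000 nt. With the block, 65.8% of all genes of 4000 to 8000 nt and 91.9% of those over 8000 nt were called lower, and so were 5 of 5 and 1 of 1 members.

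**Figure D3:**
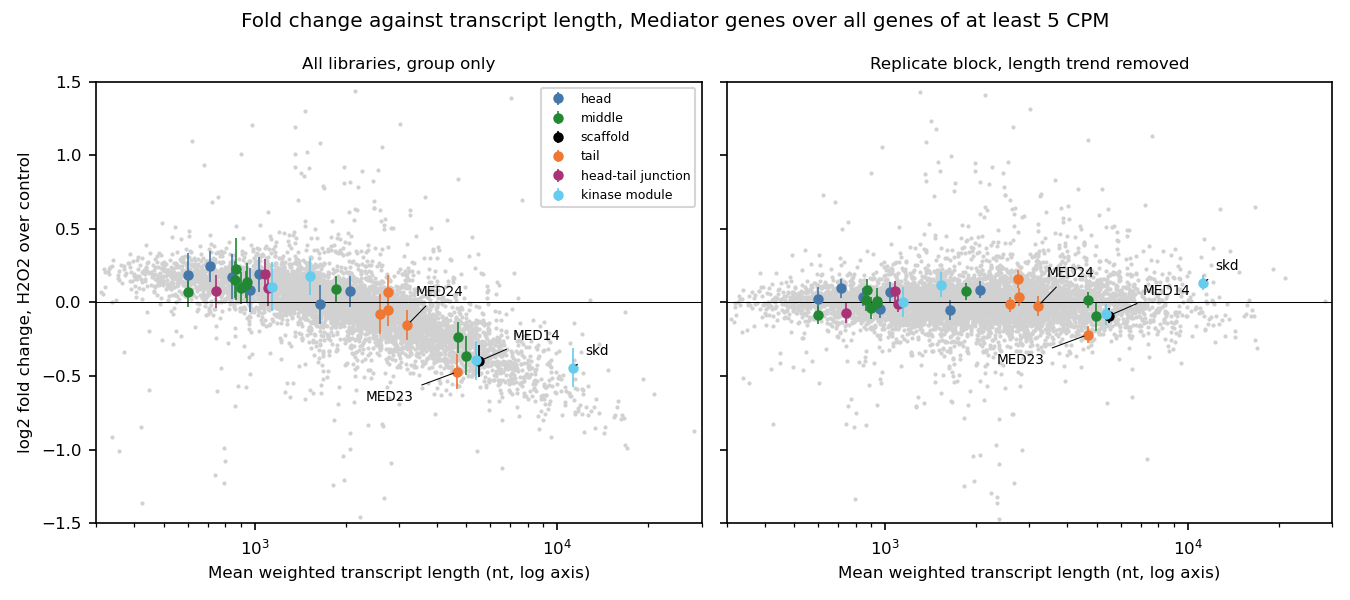
Log2 fold change (H2O2 over control) against mean weighted transcript length in nt (log axis) for the Mediator genes, coloured by module with bars of 1 SE, over all genes of at least 5 mean CPM in grey; a few extreme genes lie outside the axes. On the left, from the fit on group alone, members over 3000 nt lie below 0 and most shorter ones above; on the right, in the blocked fit without the length trend, the members lie between −0.22 (MED23) and 0.16.

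Length also moved with the libraries. Relative to each gene's mean, log2 CPM of the members changed by 0.02, 0.13 and 0.11 per doubling of length in control replicates 1, 2 and 3, and by −0.13, −0.09 and −0.03 in the H2O2 replicates. For all genes of at least 5 CPM the slopes were 0.00, 0.12 and 0.11 in controls and −0.12, −0.08 and −0.03 after H2O2. Slope and group went together, so removing the trend also removes any response to H2O2 that goes with length. With the length trend removed, edgeR called 0 of 29 members without the block (1 with an unadjusted p under 0.05) and 0 with it (3), where 2.39% (2.29% higher and 0.101% lower) and 7.43% (6.11% higher and 1.32% lower) of all tested genes were called, and 8.38% and 19.9% had an unadjusted p under 0.05. In the fit with both, MED23 stayed lowest at −0.22 (SE 0.06, adjusted p = 0.0821), MED14 had −0.09, kto −0.08, MED26 −0.09 and MED1 0.02. skd turned to 0.13 (SE 0.05, adjusted p = 0.186).

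**Figure D4:**
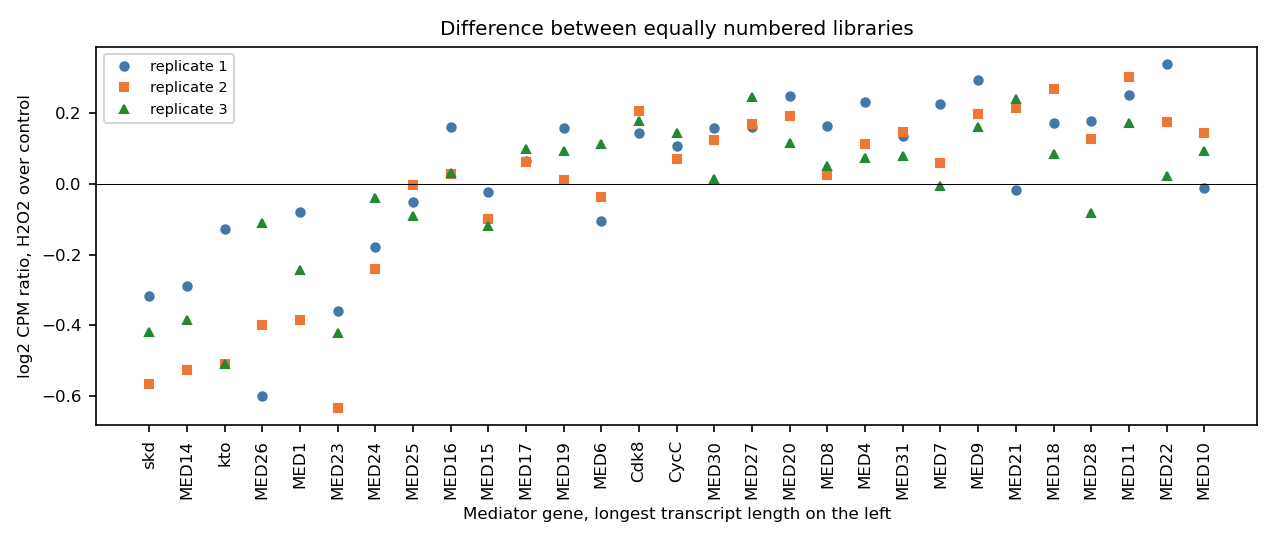
Log2 ratio of CPM in each H2O2 library to the control of the same replicate number, for the 29 Mediator genes from the longest (left) to the shortest. All 3 ratios are negative in the 7 longest genes; MED26 has its weakest ratio in replicate 3 (−0.11) and kto in replicate 1 (−0.13).

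The deposited gene length gave a second readout, since it is the mean of a gene's transcript lengths weighted by their estimated abundance. Of the 29 members, 17 have 1 transcript in the files and 12 have several, and 10 had a length that varied between libraries. For kto the weighted length was 6058, 5912 and 5622 nt in control replicates 1, 2 and 3, and 4990, 4695 and 4956 nt after H2O2. Every H2O2 library was shorter than every control. The share of all genes whose lengths did not overlap between groups is not given here, for kto or for skd below. In limma over the 5000 genes with a varying length, this did not pass (log2 change −0.26, SE 0.04, unadjusted p = 0.00157, adjusted p = 0.0879, and 0.228 with the block). In that test 0 of 10 members were called (2 at an unadjusted p under 0.05), where 0.88% of the 5000 genes were, and 0.02% with the block. At an unadjusted p under 0.05 there were 12.2% of the 5000.

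kto has 2 transcripts. FBtr0074884 has 8 exons and 7740 nt. FBtr0304716 has 3 exons and 1723 nt, lies at the 3′ end of the gene (chromosome 3L, 19843094 to 19844944), and shares its last 2 exons with the longer one, so at most 36 nt are its own. The weighted length puts the shorter transcript at 28.0, 30.4 and 35.2% of kto transcripts in controls and 45.7, 50.6 and 46.3% after H2O2. On the TPM scale, the longer transcript was at 14.1, 16.6 and 17.9 in controls and 11.1, 9.54 and 11.6 after H2O2, with no overlap. The shorter was at 5.47, 7.24 and 9.70 TPM in controls and 9.31, 9.77 and 10.0 TPM after H2O2, overlapping at control replicate 3. With at most 36 nt of its own, the split rests mostly on how reads fall along the gene, and the part of read coverage in it was not tested.

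**Figure D5:**
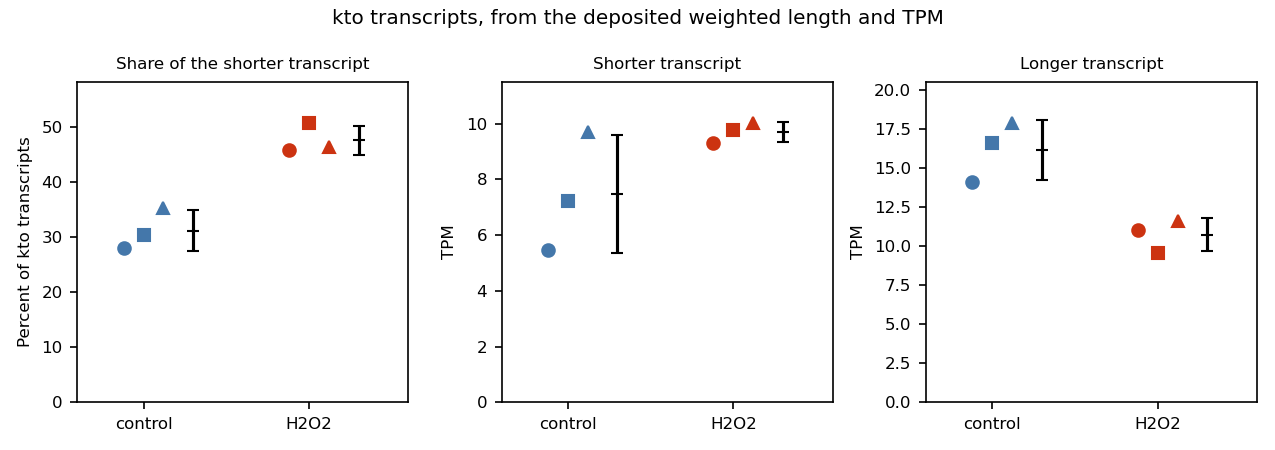
Share of the shorter kto transcript in percent (left) and TPM of the shorter (middle) and longer (right) transcript in each library, computed from the deposited weighted length and TPM; circles, squares and triangles are replicates 1, 2 and 3 and black bars the mean and SD (n = 3). The shorter transcript's share is 31.2 ± 3.68% in controls and 47.5 ± 2.68% after H2O2, and the longer transcript's TPM is lower in every H2O2 library.

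skd, with 4 transcripts of 9982 to 11414 nt, moved the other way: its weighted length was 11205, 11075 and 11159 nt in controls and 11339, 11335 and 11333 nt after H2O2. The groups did not overlap, and the H2O2 libraries were close to each other (log2 change 0.02, SE 0.00, adjusted p = 0.125 by limma). MED6 had the third smallest p, with 1637, 1649 and 1643 nt in controls and 1638, 1633 and 1639 nt after H2O2, with overlapping groups (adjusted p = 0.597 by limma).

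Mediator works with RNA polymerase II and the general factors at the promoter, so 47 genes of that machinery were taken from a list: the polymerase subunits, TFIIA to TFIIH, TFIID, Trf2, TfIIS and P-TEFb. Of these 46 were tested, and edgeR called 0 without the block, where it called 3.14% of all tested genes (6 at an unadjusted p under 0.05, where 14% of all were). DESeq2 called 5, all lower, where it called 3.86% of all genes lower, and edgeR with the block called 8, all lower, where it called 12.8% of all genes lower and 21.7% in either direction. The 8 were all 8 of the tested genes over 3000 nt: Trf2, CycT, Polr2A, Polr2B, Taf1, Taf2, Taf3 and Taf4. The list's median log2 fold change was 0.10, beside 0.02 for all tested genes. In the blocked fit without the length trend 0 were called, where 7.43% of all tested genes were. At an unadjusted p under 0.05 there were 3 in that fit, where 19.9% of all tested genes were.

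Trf2, a TBP-related factor, had 194, 251 and 260 CPM in controls and 127, 146 and 170 CPM after H2O2, without overlap (log2 fold change −0.67, adjusted p = 0.0869 without the block and 0.000114 with it by edgeR). CycT, the cyclin of the elongation kinase P-TEFb, had 185, 219 and 218 CPM in controls and 125, 128 and 165 CPM after H2O2 (log2 fold change −0.57, adjusted p = 0.102 and 0.000546 by edgeR). Polr2A, the largest polymerase subunit, went from 337 ± 18.2 to 249 ± 11.9 CPM (adjusted p = 0.0876 and 0.00146 by edgeR), and Polr2B from 167 ± 6.77 to 128 ± 12.5 CPM (0.14 and 0.00233). The short and abundant Polr2K, Polr2L, Polr2J and TfIIA-S had log2 fold changes of 0.17, 0.07, 0.11 and 0.18, all with overlapping groups and none called in either fit.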

How the data were processed

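The 6 libraries were made from poly(A) RNA with a stranded kit, per the labels' protocols. The submitters' processing notes name STAR (version 2.4.0j), RSEM (version 1.2.21) and the dm6 build. For strand setting and annotation release, nothing is stated in the sources read. The authors' deposited tables give, per the file headers, expected counts, TPM, weighted lengths and a posterior SD of the count. Symbols (16419 of 16451 IDs matched) and positions came from Ensembl release 115 (BDGP6.54, dm6 coordinates). Deposited and annotated lengths matched within 0.5 nt in 9033 of 9037 single-transcript genes.

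The deposited expected counts, rounded to integers, entered edgeR 4.0.16 under R 4.3.3. Its filterByExpr retained 8955 genes, TMM scaled the libraries, group was the only term, and an adjusted p under 0.05 was called (quasi-likelihood F, two-sided). The SE was obtained as the log2 fold change over the root of F. limma 3.58.1 tested log2 weighted length. DESeq2 1.42.0 and the other settings are alternatives. To remove the length trend, a lowess curve on log2 length entered as an offset. It was fitted in each library, over genes of at least 5 CPM, to log2 CPM relative to each gene's mean over the libraries.

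Deviations of same-numbered libraries from their group means correlated at 0.72, 0.52 and 0.60, so the numbers were read as pairing libraries; this comes from the data, not the labels. No libraries were duplicates (chi-square of at least 48.7 per degree of freedom). Members and lists were chosen with earlier results of these data known. Full values go to members called with or without the block, filled up to 8 by p, to the most and least abundant gene of each module, and to 8 genes of the promoter machinery, 4 by p with the block and 4 by TPM; Taf9 was left out of that list. Taf1, Taf2, Taf3, Taf4 and the other members were named after their values were seen. Promoter motifs and protein sequences were not analysed here.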

Additional observations from a re-analysis of the deposited data

How the results depend on the processing

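The count of called Mediator genes, 0 by edgeR on group alone, was 7 with the replicate block and 3 by DESeq2, and 3 to 5 with the block when 1 replicate number was left out of both groups (5 without replicate 1, 3 without replicate 2, 4 without replicate 3); skd, MED23 and MED14 were called lower in each of these fits. It was 0 under every other setting, including the 6 fits without 1 library. For the promoter machinery, 0 became 8 with the block, 5 by DESeq2, 1 by limma on log2(TPM + 0.1), and 4 to 8 with the block and 1 replicate number left out. Over all genes, 281 calls became 1947 with the block, 665 with the block once the length trend was removed, 706 by DESeq2 and 76 with at least 50 counts in 3 libraries. They ranged from 0 to 154 without 1 library (0 when control replicate 2 or 3, or H2O2 replicate 2, was left out), and from 769 to 1652 with the block and 1 replicate number left out (1536 without replicate 1). The higher share of calls was 81.9%, and 41.3% with the block, 51.0% by DESeq2 and 95.8% with the length trend removed. The members' median log2 fold change of 0.0853 was 0.0061 with the length trend removed and 0.0123 when the block was added to that, and −0.0169 and −0.0175 by limma on log2(TPM + 1) and log2(TPM + 0.1), where the median over all genes was −0.06 and −0.07. It ranged from 0.0267 to 0.1043 without 1 library and from 0.0494 to 0.0888 with the block and 1 replicate number left out. Over all 18 alternatives, the log2 fold change ran from −0.56 to −0.22 for MED23, from −0.49 to −0.09 for MED14, from −0.51 to −0.08 for kto, from −0.51 to −0.09 for MED26, from −0.55 to 0.13 for skd, from −0.32 to 0.02 for MED1, from 0.09 to 0.29 for MED11 and from 0.15 to 0.40 for ix. No member was called for weighted length under any of its 8 alternatives. The block changed no other call among the Mediator genes. The offset that removes the length trend takes out every difference that goes with length, whatever its source. The cause of these differences was not tested.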

Other observations

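Genes just downstream of Mediator genes were read for the same libraries. For 23 of the 29 members the files list a gene that starts within 5 kb downstream on the same strand, and 22 of these neighbours were tested. The values of neighbours and members given here do not allow for the length trend. One of the 22 was called by edgeR without the block, where 3.14% of all tested genes were: poe, a ubiquitin ligase gene 188 nt downstream of MED20, which was lower, at 997 CPM on average in controls against 577 CPM with H2O2 (adjusted p = 0.0186, log2 fold change −0.79), while MED20 itself had 0.19. CG3700, 10 nt downstream of MED23, averaged 19 CPM without and 19.6 CPM with H2O2, a log2 fold change of 0.05 beside −0.47 for MED23. With the block 6 of the 22 were called, 4 higher and 2 lower, where 21.7% of all tested genes were. The lower ones were poe and Rrp6, an exosome exonuclease gene 2758 nt downstream of CycC (82.6 CPM in controls and 67.1 CPM with H2O2, adjusted p = 0.0157 with the block by edgeR). Papss, which makes the sulfate donor PAPS and lies 349 nt downstream of kto, was higher (63.6 to 75.8 CPM, adjusted p = 0.0269 with the block by edgeR). Among neighbours under 2 CPM in controls, lncRNA:CR45200, 1370 nt downstream of MED26, averaged 0.126 CPM in controls and 0.413 CPM with H2O2 (adjusted p = 0.0566 without the block and 0.0117 with it by edgeR; log2 fold change 1.69). CG7166 downstream of MED1 had 0.92 and CG4836 downstream of MED25 1.24, each called with the block only.

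Among genes with 2 transcripts, a mean of at least 100 counts, and a much shorter transcript at the 3′ end (at most 0.5 of the longer one's length), there were 7, kto included. Genes were left out where either transcript held nearly all, where the length gave no valid share, or where transcript ends missed set distances. The shorter transcript's share was higher after H2O2 in 6 of them, with a median change of 5.55 percentage points, and kto, which prompted the comparison, had the largest, 16.4. Groups did not overlap in 1 of the 7, kto itself. Where the shorter transcript lay at the 5′ end, 12 of 18 were higher, with a median of 0.96 percentage points, and groups did not overlap in 2 higher and 2 lower. These shares rest on the authors' estimates, and their difference was not tested.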
